A study of Drosophila melanogaster with 12 samples.

Results

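The effect of double-stranded RNA (dsRNA) against the gene row was measured across all 12 libraries of a factorial RNA interference (RNAi) experiment in Drosophila melanogaster S2 cells, a line that was derived from embryos and resembles macrophages. Libraries of 2 groups carried row dsRNA: row RNAi (dsRNA against row alone, n = 3) and double RNAi (dsRNA against row and BEAF-32, n = 3). Libraries of the other 2 groups carried none: BEAF-32 RNAi (dsRNA against BEAF-32 alone, n = 3) and control (untreated cells, n = 3). The row main effect is the difference between the 6 libraries with row dsRNA and the 6 without it, fitted with BEAF-32 dsRNA as a covariate and no interaction term, so that 12 of the 12 libraries of the series enter 1 estimate per gene. The series asks how the chromatin factor ROW works together with BEAF-32, and the main effect estimates the difference that came with row dsRNA, averaged over cells with and without BEAF-32 dsRNA. Per the labels' protocols, dsRNA was given at 4 µg per ml and 2 days later at 8 µg per ml, and RNA was collected after 2 more days. The labels do not say how the dose was divided in double RNAi. Control cells had no dsRNA, so the response to dsRNA of unrelated sequence was not measured, and it cannot be told apart from the row effect in row RNAi against control. The main effect averages that comparison in, so its calls carry the same limit. In double RNAi against BEAF-32 RNAi both groups had dsRNA. Nothing in the labels says that the replicates came from separate cultures, so p-values measure the spread between these libraries, which may be technical.

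ROW (relative of WOC) is a zinc finger protein that binds DNA and sits in a complex with the zinc finger protein WOC, the heterochromatin protein 1 paralog HP1c and the ubiquitin receptor Ubqn. HP1c, unlike the founding HP1 protein, is found in euchromatin, at the promoters of active genes. BEAF-32 is an insulator protein that binds near promoters of housekeeping genes and at borders of chromatin domains. RNAi in S2 cells lowers a transcript and, with a delay, its protein, so that a change measured days after dsRNA may be direct or indirect.

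Expression was measured by 3' RNA-seq, which counts transcripts from their polyadenylated ends. Total counts ran from 2276507 to 3963412 in the libraries with row dsRNA and from 2562346 to 3258226 in those without. Levels are given as CPM, which brings every library to the same total after TMM scaling. Of 16718 genes in the table, 7377 had enough counts to be tested, and a gene is said to have risen or fallen where its adjusted p (edgeR quasi-likelihood test, Benjamini-Hochberg over the 7377) was under 0.05. The common biological coefficient of variation was 0.171. Hemocyte markers, which mark the lineage S2 cells resemble, summed to 3557 to 4408 CPM with row dsRNA and 3800 to 4301 CPM without it, and 0 of the 22 in the table were at 0 throughout. Among 9 fat body markers 6 were at 0 in every library and the summed level reached 2.02 CPM at most. Of 4 crystal cell markers 2 (PPO1 and lz) were at 0, and the 4 summed to 8.98 CPM at most. Other lists were not silent. Neuron markers summed to 46.2 CPM at most, germline markers to 121 CPM and muscle markers to 385 CPM. Tm1, the 1 muscle marker tested, averaged 329 CPM. On principal component 2, which held 12.1% of the variance, the 6 libraries with row dsRNA lay between 6.70 and 22.1 and the 6 without between -18.0 and -0.317. Component 1 (12.7%) had its extremes at BEAF-32 RNAi replicate 3 (25.5) and control replicate 1 (-23.4), both without row dsRNA. Libraries with row dsRNA ran from -10.9 (row RNAi replicate 3) to 17.8 (double RNAi replicate 2) on it.

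Between libraries with and without row dsRNA 49 of 7377 genes differed, which is 0.664% of those tested. Of these, 16 rose (0.217%) and 33 fell (0.447%). The rises included cytoplasmic actins, an actin elongation factor, 4 heat shock genes and the transcription factor genes sima, Myc and Xrp1. The falls included row itself, hemocyte and matrix genes, a peroxiredoxin and enzymes of sugar and amino acid metabolism. The changes were small: the median fold was 1.23 among the genes that rose and 1.52 among those that fell, and 2 rises and 4 falls exceeded 2-fold. At an unadjusted p under 0.05 there were 666 genes (9.03%). With library totals in place of TMM the split was 21 higher and 27 lower (43.8% higher, beside 32.7% with TMM). Leaving out control replicate 2 left 30 calls and leaving out row RNAi replicate 2 left 31. Of the 49 calls 20 held in all 12 fits that leave out a library, 8 were lost in 1 to 3 of them and 21 in more. Without the 2 libraries farthest apart on component 1 there were 51 calls, 34 of them among the 49.

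**Figure D1:**
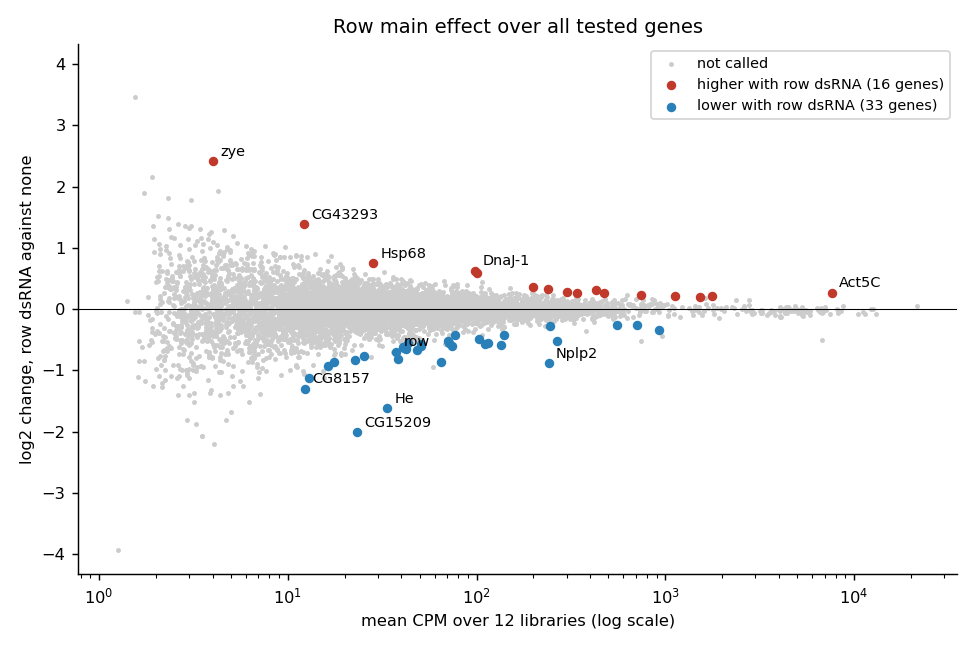
Log2 change with row dsRNA against none (vertical axis) over mean CPM of the 12 libraries (horizontal log axis) for the 7377 tested genes, with the 16 genes that rose in red and the 33 that fell in blue. Most called changes are small, and CG15209 and He stand lowest among the called genes.

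In 61 genes (0.827%) the 6 libraries with row dsRNA and the 6 without did not overlap. In 27 of these all row dsRNA libraries were higher, and in 34 they were lower. Of the 49 called genes 27 were among them, and 22 had at least 1 library inside the range of the other set.

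**Figure D2:**
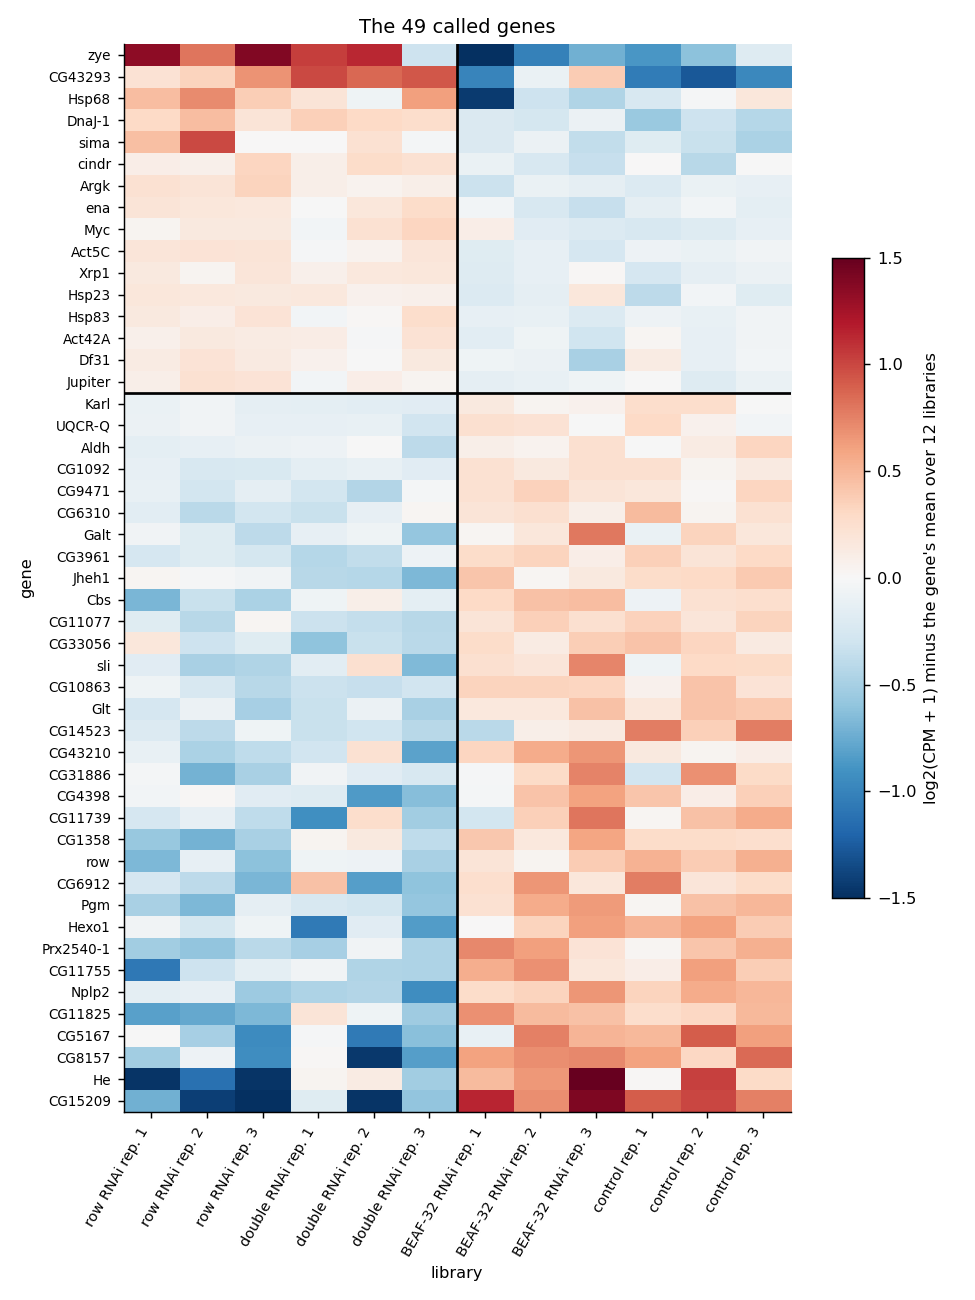
Level of the 49 called genes (rows, ordered by log2 change) in the 12 libraries (columns), as log2(CPM + 1) minus the mean of the gene, with the 6 row dsRNA libraries left of the vertical line and colours held at the limits of 1.5. The zye, CG43293, He and CG15209 rows hold the strongest colours, and row RNAi libraries are lower than double RNAi libraries in He.

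The targeted transcript fell. The row gene had 22.3, 33.1 and 23.2 CPM in row RNAi and 34.5, 34.1 and 25.4 CPM in double RNAi, against 41.3, 37.2 and 47.2 CPM in BEAF-32 RNAi and 52.4, 47.2 and 52.5 CPM in control. The 2 sets of 6 did not overlap. The fitted log2 change was -0.69 (SE 0.16, adjusted p = 0.0125), and the level with row dsRNA was 62.2% of that without. It was 51.7% in row RNAi of control, and 74.8% in double RNAi of BEAF-32 RNAi, where the log2 change of -0.43 had an unadjusted p of 0.065 in edgeR. The interaction of 0.52 (95% interval -0.10 to 1.15, unadjusted p = 0.101 in edgeR) did not pass. Leaving out a single row RNAi library ended the call for replicate 1 (adjusted p = 0.0571) and for replicate 3 (adjusted p = 0.0719). It also ended without the 2 libraries farthest apart on component 1 (adjusted p = 0.0632), a choice made after seeing the data. The row gene overlaps Ir51b, annotated on the opposite strand, and how the counting used strand is not stated in the labels.

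BEAF-32 dsRNA is the covariate, and the BEAF-32 transcript did not pass the test for row dsRNA (log2 change 0.26, SE 0.16, adjusted p = 0.698). It had 50.9, 62.0 and 64.6 CPM in row RNAi and 26.1, 33.3 and 30.4 CPM in double RNAi, against 23.4, 24.7 and 14.9 CPM in BEAF-32 RNAi and 66.0, 42.8 and 62.9 CPM in control. All 3 double RNAi libraries were above all 3 BEAF-32 RNAi libraries, at an unadjusted p of 0.068 in edgeR. The BEAF-32 dsRNA coefficient of the same fit called 7 genes, all lower, and 0 of them were among the 49 of row dsRNA.

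**Figure D3:**
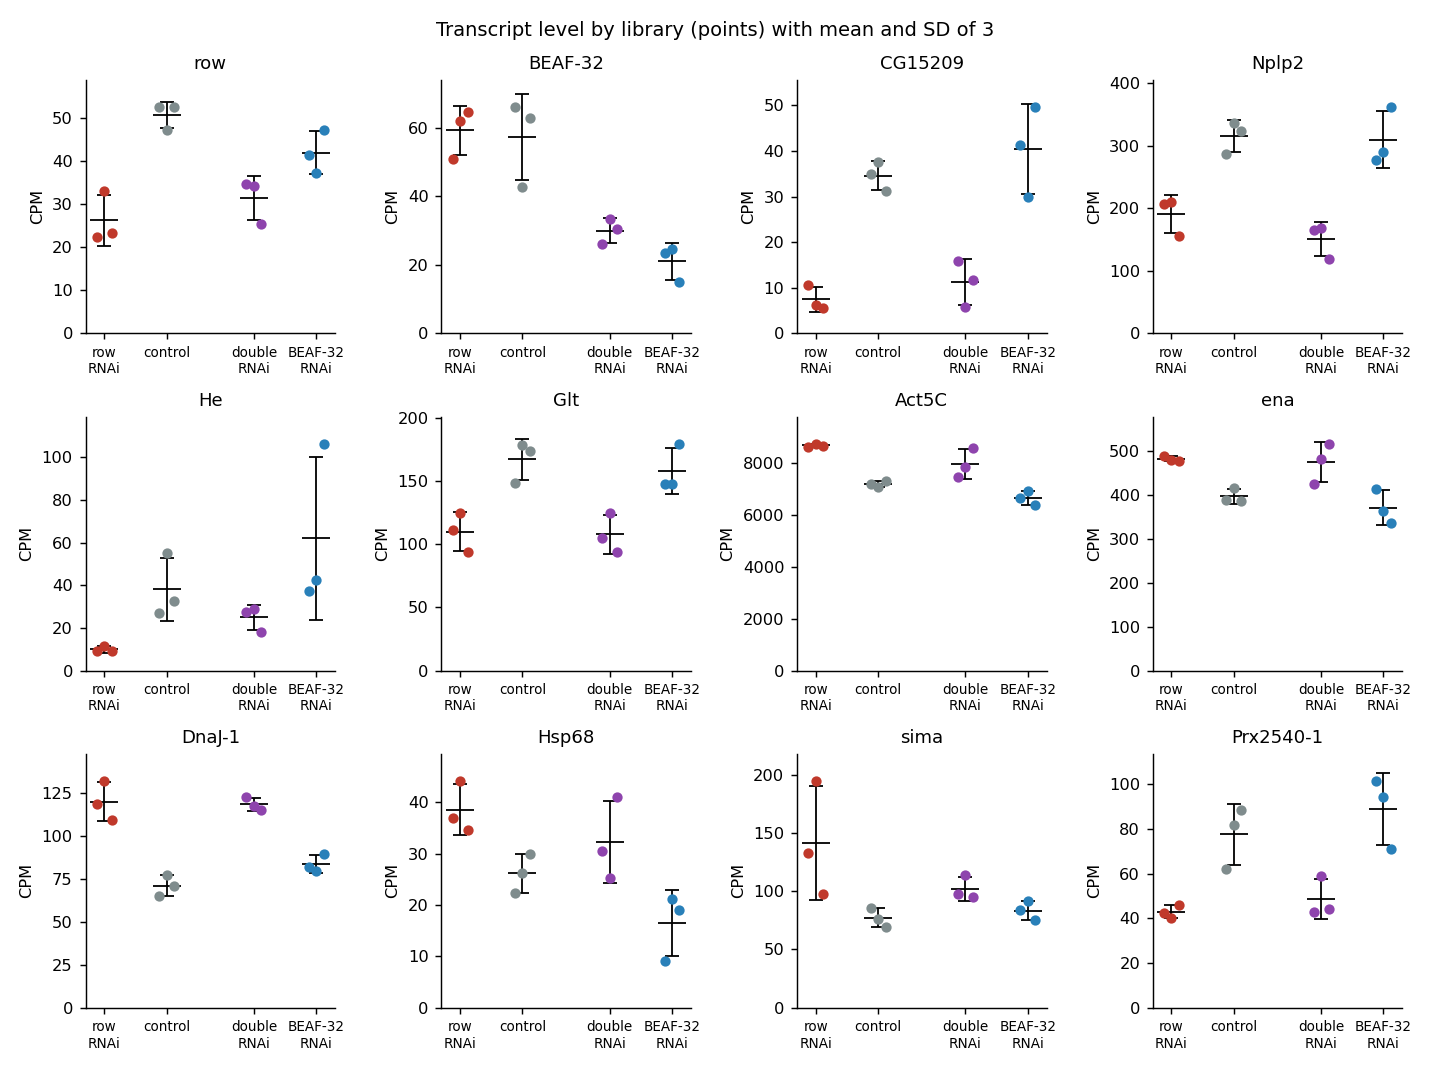
CPM (linear axis from 0) of 12 genes in the 4 groups, each point 1 library, with the mean and SD of 3; row RNAi stands left of control and double RNAi left of BEAF-32 RNAi. CG15209, Nplp2 and Glt are lower and DnaJ-1, Act5C and ena higher on the row dsRNA side of both pairs, while the spread of sima and He is wide in 1 group each.

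Among cytoskeletal genes, Act5C and Act42A, the 2 cytoplasmic actins, and ena, which encodes the Ena/VASP factor that elongates actin filaments, rose. Act5C had 8623, 8729 and 8671 CPM in row RNAi and 7460, 7853 and 8593 CPM in double RNAi, against 6661, 6939 and 6382 CPM in BEAF-32 RNAi and 7182, 7058 and 7290 CPM in control. The lowest row dsRNA library was above the highest library without it, and the log2 change was 0.27 (SE 0.04, adjusted p = 5.7e-06). The ena gene averaged 479 ± 29.5 CPM with row dsRNA and 385 ± 30.9 CPM without (SD, n = 6 each; log2 change 0.32, adjusted p = 0.00187), also without overlap. Act42A averaged 1907 ± 101 CPM with row dsRNA and 1639 ± 126 CPM without (log2 change 0.22, adjusted p = 0.00951), with overlap, and was lost without BEAF-32 RNAi replicate 3 or double RNAi replicate 3 (adjusted p up to 0.0531). Actin coding sequences are nearly alike, but reads here come mainly from the polyadenylated ends of transcripts. Whether the counting split reads unevenly between these genes was not tested. Of 39 tested actin cytoskeleton genes 3 rose and 0 fell, beside 0.217% that rose over all tested genes. Members of this and the other lists were chosen with earlier results of these data known. In the list as a whole 21 were above 0 and 18 below, with a median log2 change of 0.01, against 49.1% above 0 and a median of 0.00 over all tested genes. The adaptor gene cindr, which links receptors and the actin cytoskeleton, and Jupiter, which encodes a microtubule-associated protein, also rose. The cindr gene averaged 223 ± 16.4 CPM with row dsRNA and 174 ± 21.3 CPM without (log2 change 0.36, adjusted p = 0.00718), and was lost without control replicate 2 (adjusted p = 0.0571). Jupiter rose by 0.20 on the log2 scale (adjusted p = 0.0201) and was lost in 5 of the 12 fits that leave out a library.

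Several heat shock genes rose. Of 14 tested heat shock and chaperone genes 4 rose and 0 fell, 13 of 14 had a log2 change above 0, and the median was 0.20. Over all tested genes 0.217% rose and 49.1% were above 0. Members of the list were chosen with earlier results of these data known, so these counts describe the list and test nothing. The list median was 0.34 in row RNAi against control and 0.14 in double RNAi against BEAF-32 RNAi. DnaJ-1, which encodes an Hsp40 co-chaperone, had 118, 132 and 109 CPM in row RNAi and 122, 117 and 115 CPM in double RNAi, against 81.9, 79.6 and 89.5 CPM in BEAF-32 RNAi and 64.9, 77.1 and 70.9 CPM in control. The sets did not overlap, and the log2 change was 0.62 (SE 0.10, adjusted p = 2.4e-05). Hsp68, an inducible member of the Hsp70 family, had 37.0, 44.1 and 34.6 CPM in row RNAi and 30.6, 25.3 and 41.0 CPM in double RNAi, against 9.14, 21.2 and 19.1 CPM in BEAF-32 RNAi and 22.4, 26.2 and 29.9 CPM in control. BEAF-32 RNAi replicate 1 was the lowest library, and the sets overlapped between double RNAi and control. Its log2 change was 0.75 (SE 0.19, adjusted p = 0.0263). The Hsp90 gene Hsp83 averaged 807 ± 63.8 CPM with row dsRNA and 689 ± 25.4 CPM without (log2 change 0.23, adjusted p = 0.0201), without overlap. Hsp23, a small heat shock protein gene, averaged 518 ± 16.5 CPM with row dsRNA and 434 ± 57.5 CPM without (log2 change 0.26, adjusted p = 0.0339). Other members did not pass: Hsc70-4 had a log2 change of 0.15 (adjusted p = 0.11) and Hsp26 of 0.40 (adjusted p = 0.335), and both genes were chosen after their values were seen. DnaJ-1 was called in all 12 fits that leave out a library. Hsp68 and Hsp83 were lost in 4 each (adjusted p up to 0.184 and 0.135) and Hsp23 in 8 (adjusted p up to 0.132).

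The transcription factor genes sima, Myc and Xrp1 rose. The sima gene, which encodes the HIF-1 alpha subunit of the hypoxia response, had 133, 194 and 97.6 CPM in row RNAi and 97.4, 114 and 94.9 CPM in double RNAi, against 83.5, 91.2 and 75.0 CPM in BEAF-32 RNAi and 85.8, 76.5 and 69.5 CPM in control. Row RNAi replicate 2 was far above the other libraries of its group, and the sets did not overlap. The log2 change was 0.59 (SE 0.14, adjusted p = 0.044). It was lost in 8 of the 12 fits that leave out a library (adjusted p up to 0.141), row RNAi replicates 1 and 2 among them, and kept without row RNAi replicate 3, double RNAi replicates 1 and 3 and BEAF-32 RNAi replicate 2. Of 15 hypoxia response genes 1 rose (sima) and 0 fell, with a median of 0.12 (0.09 to 0.22 when a library was left out). The share of all tested genes that rose was 0.217%. The hypoxia-regulated scyl had a log2 change of 0.39 (adjusted p = 0.211) and the prolyl hydroxylase gene Hph one of 0.29 (adjusted p = 0.41), neither past the test. The growth regulator Myc averaged 329 ± 29.5 CPM with row dsRNA and 271 ± 24.5 CPM without (log2 change 0.28, adjusted p = 0.024), and was the 1 gene called of 15 regulators of the G1 to S transition. The bZIP gene Xrp1, which acts in DNA damage and cell competition, averaged 372 ± 14.7 CPM with row dsRNA and 311 ± 20.0 CPM without (log2 change 0.26, adjusted p = 0.024), without overlap. The Myc and Xrp1 calls were each lost in 7 of the 12 fits that leave out a library.

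Stress signalling and cell death lists held 1 call. Among all tested genes 0.217% rose, and 49.1% were above 0. Of 15 apoptosis genes 1 rose (Xrp1), 10 of 15 were above 0, and the median log2 change was 0.16. That median was 0.06 without double RNAi replicate 3 and 0.11 without control replicate 3, and ran up to 0.24 when other libraries were left out. The initiator caspase gene Dronc averaged 26.9 ± 3.50 CPM with row dsRNA and 17.3 ± 5.03 CPM without (log2 change 0.65, adjusted p = 0.132). Of 21 JNK pathway genes 0 passed, 15 were above 0 and the median was 0.19. It was 0.10 without control replicate 1, and between that value and 0.13 without control replicate 2, row RNAi replicate 2, double RNAi replicate 2 or double RNAi replicate 3. In the separate comparisons the median was 0.06 in row RNAi against control and 0.11 in double RNAi against BEAF-32 RNAi. The matrix metalloproteinase gene Mmp1 had a log2 change of 0.91 (adjusted p = 0.0886) and the JNK phosphatase gene puc one of 0.43 (adjusted p = 0.18). Of 12 JAK/STAT genes 0 passed and 10 were above 0, with a median of 0.11 (0.06 to 0.13 over the alternatives). Of 19 tested genes in the list for RNA interference 0 passed and 12 were above 0. The smallest p was that of pst, which is not a known part of that machinery (log2 change 0.58, adjusted p = 0.293). Dcr-2, the Dicer of the siRNA pathway, stood at 0.32 (adjusted p = 0.463).

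**Figure D4:**
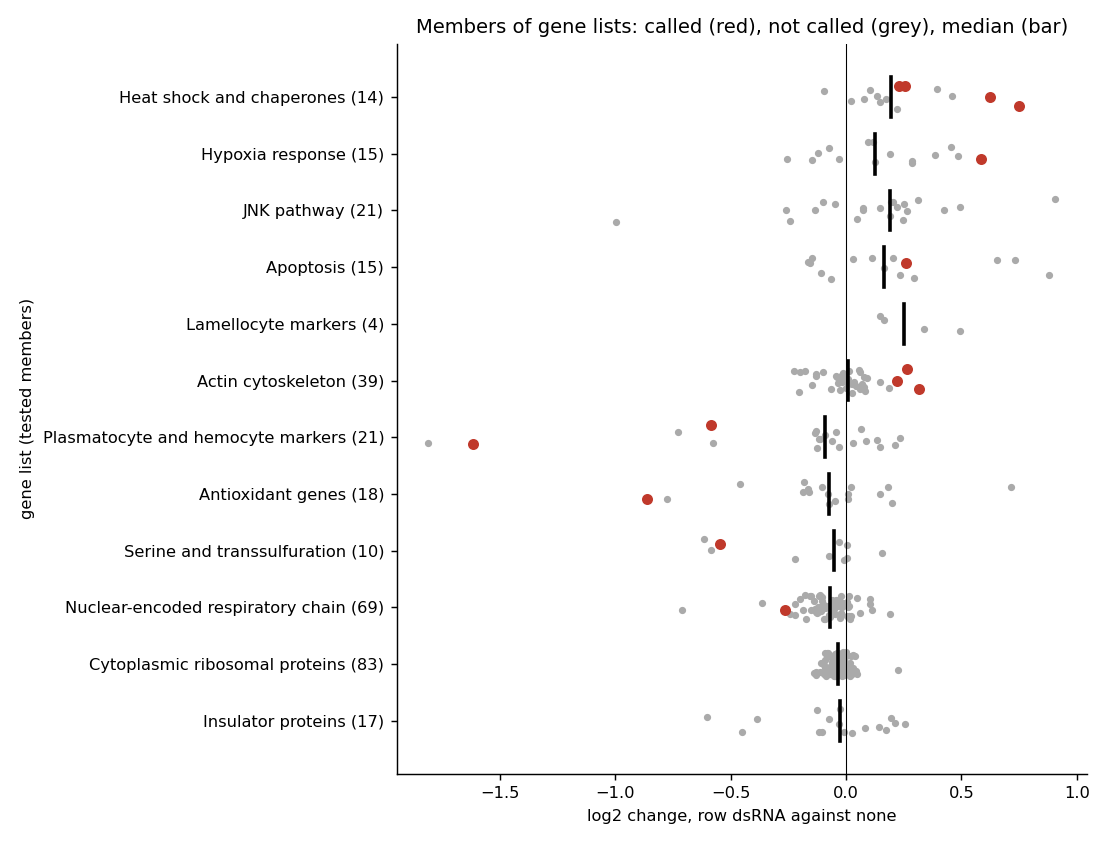
Log2 change with row dsRNA against none for the tested members of 12 gene lists (numbers in brackets), with called members in red, others in grey and the median of each list as a black bar; vertical scatter within a list carries no meaning. The heat shock list has 4 called members and 13 of 14 above 0, and the ribosomal protein list is narrow around its median of -0.04.

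Other rises included Argk, the arginine kinase that buffers ATP, and Df31, which encodes a chromatin decondensation factor. Argk averaged 266 ± 19.8 CPM with row dsRNA and 211 ± 12.0 CPM without (log2 change 0.33, SE 0.07, adjusted p = 0.00563), without overlap. Df31 averaged 1211 ± 59.3 CPM with row dsRNA and 1044 ± 137 CPM without (log2 change 0.22, adjusted p = 0.0471), and was lost in 9 of the 12 fits that leave out a library. Of the genes that rose with a mean CPM of at least 10, CG43293 had the largest change: 12.3, 13.4 and 17.3 CPM in row RNAi and 21.7, 19.8 and 20.9 CPM in double RNAi, against 4.77, 9.68 and 13.9 CPM in BEAF-32 RNAi and 4.56, 3.75 and 4.87 CPM in control. The log2 change was 1.39 (SE 0.28, adjusted p = 0.00333). BEAF-32 RNAi replicate 3 reached the row RNAi range and was the library where the sets overlapped. CG43293 overlaps D19A on the opposite strand. The zona pellucida domain gene zye, named here for its size and chosen after its values were seen, rose at a low level. It had 8.99, 5.86 and 9.27 CPM in row RNAi and 7.09, 7.58 and 2.16 CPM in double RNAi, against 0, 0.937 and 1.39 CPM in BEAF-32 RNAi and 1.14, 1.56 and 2.43 CPM in control (log2 change 2.41, SE 0.56, adjusted p = 0.0153), and 5 of the 12 fits that leave out a library lost it.

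CG15209 fell most of the genes called. It had 10.7, 6.20 and 5.56 CPM in row RNAi and 15.9, 5.89 and 11.7 CPM in double RNAi, against 41.3, 30.0 and 49.6 CPM in BEAF-32 RNAi and 34.9, 37.5 and 31.3 CPM in control. The sets did not overlap: the highest row dsRNA library was below the lowest one without. The log2 change was -2.02 (SE 0.22, adjusted p = 8.6e-10), so that the level with row dsRNA was 24.9% of that without. The annotation places CG15209 across 2 genes of the opposite strand, CG32669 and sbr.

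The hemocyte marker He, the basement membrane gene Glt and the secreted ligand gene sli fell. Hemese (He), a surface glycoprotein of hemocytes, had 8.99, 11.7 and 8.96 CPM in row RNAi and 27.5, 29.05 and 18.2 CPM in double RNAi, against 37.4, 42.5 and 106 CPM in BEAF-32 RNAi and 27.0, 55.0 and 32.7 CPM in control. The highest double RNAi libraries reached the lowest control library, and BEAF-32 RNAi replicate 3 stood apart. The log2 change was -1.61 (SE 0.27, adjusted p = 0.00523), and the call ended when row RNAi replicate 2 was left out (adjusted p = 0.0583) and when the BEAF-32 covariate was dropped (adjusted p = 0.218). Glutactin (Glt), a basement membrane glycoprotein, averaged 109 ± 13.97 CPM with row dsRNA and 163 ± 16.2 CPM without (log2 change -0.59, SE 0.09, adjusted p = 1.8e-05), without overlap. The ranges were 93.6 to 125 CPM with row dsRNA and 147 to 179 CPM without. Slit (sli), the secreted ligand of Robo receptors, averaged 89.5 ± 21.2 CPM with row dsRNA and 131 ± 25.2 CPM without (log2 change -0.56, adjusted p = 0.0119), a call that ended when either row RNAi replicate 2 or 3 was left out (adjusted p up to 0.0715). Of 21 hemocyte markers 2 fell (He and Glt) and 0 rose; 7 were above 0 and 14 below, with a median of -0.09. The share of all tested genes that fell was 0.447%, and 49.1% were above 0. Of 13 tested basement membrane genes 1 fell (Glt, which both lists hold) and 0 rose; 4 were above 0 and 9 below, with a median of -0.03. Among them the perlecan gene trol had a log2 change of 0.11 (adjusted p = 0.721). Peroxidasin (Pxn) had a log2 change of -0.12 (adjusted p = 0.498). All 4 tested lamellocyte markers were above 0 and 0 passed (median 0.25): the cytoskeletal linker shot had a log2 change of 0.34 (adjusted p = 0.0631) and the prophenoloxidase PPO3 one of 0.49 (adjusted p = 0.176). Summed lamellocyte markers spanned 519 to 724 CPM with row dsRNA and 455 to 624 CPM without. In bulk RNA fewer cells of a type and less RNA per cell cannot be told apart.

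Nplp2, Karl and CG14523 also fell. Nplp2, a neuropeptide-like precursor, had 206, 211 and 156 CPM in row RNAi and 165, 168 and 119 CPM in double RNAi, against 277, 289 and 362 CPM in BEAF-32 RNAi and 287, 336 and 323 CPM in control. No row dsRNA library reached the lowest library without it, and the log2 change was -0.89 (SE 0.09, adjusted p = 7.4e-07). The lipocalin gene Karl averaged 506 ± 16.1 CPM with row dsRNA and 606 ± 48.7 CPM without (log2 change -0.26, adjusted p = 0.00821), and was lost without control replicate 2 (adjusted p = 0.0506). The neprilysin-like metallopeptidase gene CG14523 (Nepl19) averaged 58.4 ± 5.56 CPM with row dsRNA and 90.5 ± 27.2 CPM without (log2 change -0.60, adjusted p = 0.00241). The control libraries, at 121, 91.5 and 122 CPM, were above the BEAF-32 RNAi libraries, at 53.7, 75.9 and 78.1 CPM.

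Prx2540-1, Pgm, Cbs, Hexo1, Galt and Jheh1, which encode enzymes, fell. Prx2540-1 (Prx6b), a peroxiredoxin, had 42.3, 40.3 and 46.0 CPM in row RNAi and 43.0, 58.9 and 44.1 CPM in double RNAi, against 101, 94.3 and 70.8 CPM in BEAF-32 RNAi and 62.3, 81.8 and 88.6 CPM in control. The sets did not overlap, with a log2 change of -0.86 (SE 0.12, adjusted p = 2.8e-06). Its close copy Prx2540-2 had a log2 change of -0.78 (adjusted p = 0.263), and counts between copies may be split unevenly. Of 18 tested antioxidant genes 1 fell and 0 rose (median -0.08), beside 0.447% that fell over all tested genes. Phosphoglucose mutase (Pgm), which interconverts glucose phosphates, averaged 27.9 ± 4.22 CPM with row dsRNA and 49.2 ± 7.43 CPM without (log2 change -0.82, SE 0.16, adjusted p = 0.00103), without overlap. Cystathionine beta-synthase (Cbs), the first enzyme of transsulfuration, averaged 58.6 ± 11.4 CPM with row dsRNA and 84.8 ± 10.98 CPM without (log2 change -0.55, adjusted p = 0.00419). Eip55E, cystathionine gamma-lyase, the next enzyme of that pathway, had a log2 change of -0.58 (adjusted p = 0.0631), and of the 10 tested genes of the list 1 fell. Hexo1, a hexosaminidase, averaged 16.5 ± 4.69 CPM with row dsRNA and 28.99 ± 4.46 CPM without (log2 change -0.84, adjusted p = 0.0201), without overlap. Galt, of galactose metabolism, had a log2 change of -0.49 (adjusted p = 0.024). The Hexo1 and Galt calls were lost in 5 and 6 of the 12 fits that leave out a library. Juvenile hormone epoxide hydrolase 1 (Jheh1) fell by 0.53 on the log2 scale (adjusted p = 0.00718), while Jheh2 had a log2 change of -0.18 (adjusted p = 0.803), and of 5 tested juvenile hormone genes 1 fell.

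UQCR-Q, a subunit of complex III, averaged 648 ± 34.7 CPM with row dsRNA and 778 ± 77.0 CPM without (log2 change -0.27, SE 0.06, adjusted p = 0.0079), without overlap, and was the 1 gene called of 69 nuclear-encoded respiratory chain genes. Of these 14 were above 0 and 55 below, with a median of -0.07 (-0.03 in row RNAi against control and -0.10 in double RNAi against BEAF-32 RNAi). Over all tested genes 0.447% fell and 49.1% were above 0. The mitochondrial aldehyde dehydrogenase gene Aldh had a log2 change of -0.28 (adjusted p = 0.0479), the Mpv17 gene CG11077 one of -0.55 (adjusted p = 0.000111, without overlap), and the sideroflexin gene CG11739 (Sfxn1-3) one of -0.66 (adjusted p = 0.0436). The CG11739 call was lost in 9 of the 12 fits that leave out a library and Aldh in 9. Of 83 cytoplasmic ribosomal protein genes 0 passed, 14 were above 0 and 69 below, and the median was -0.04. It was 0.02 in row RNAi against control and -0.09 in double RNAi against BEAF-32 RNAi. Ribosomal protein transcripts held 38.4% (double RNAi replicate 3) to 42.1% (control replicate 1) of counts.

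Among genes named by CG number, CG3961 and CG1092 fell with little spread. CG3961 averaged 219 ± 19.0 CPM with row dsRNA and 314 ± 21.0 CPM without (log2 change -0.52, SE 0.07, adjusted p = 7.7e-07), and CG1092 averaged 815 ± 30.9 CPM with row dsRNA and 1035 ± 56.6 CPM without (log2 change -0.34, SE 0.05, adjusted p = 7.5e-06), both without overlap. CG8157 averaged 7.19 ± 3.02 CPM with row dsRNA and 17.6 ± 2.27 CPM without (log2 change -1.30, adjusted p = 0.00702). CG5167, CG11825, CG11755 and CG6912 had log2 changes of -1.12, -0.93, -0.87 and -0.77 (adjusted p 0.0232, 0.0279, 0.0452 and 0.0436), at mean levels of 8.15 to 18.9 CPM with row dsRNA and 17.7 to 32.0 CPM without. These 4 calls were lost in 6, 7, 8 and 9 of the 12 fits that leave out a library. CG1358 (HisT) had a log2 change of -0.67 (adjusted p = 0.00523) and CG4398 (jtb) one of -0.64 (adjusted p = 0.0221), and the CG4398 call was lost in 4 of the 12. The remaining falls were CG43210, CG31886, CG10863, CG33056, CG6310 and CG9471, with log2 changes of -0.62 to -0.42. Of the 12 fits that leave out a library, CG33056 was lost in 10, CG31886 and CG9471 in 8 each, CG43210 in 3 and CG10863 in 1. CG31886 was also lost in 6 of the 9 other alternatives and CG9471 in 4.

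Of 6 tested HP1c complex and HP1 genes 1 fell (row) and 0 rose, with 5 of 6 below 0 and a median of -0.02. Over all tested genes 0.447% fell and 49.1% were above 0. Woc had a log2 change of -0.07 (adjusted p = 0.918), HP1c of 0.03 (adjusted p = 0.985) and Ubqn of -0.03 (adjusted p = 0.964). Of 17 insulator protein genes 0 passed. Dref, whose protein recognises motifs that overlap those of BEAF-32, averaged 40.8 ± 10.1 CPM with row dsRNA and 55.2 ± 5.62 CPM without (log2 change -0.45, adjusted p = 0.141). The 4 tested neprilysin-like genes held 1 fall (CG14523) and 3 of 4 were below 0. In the lists for which no called gene is named here 0 genes passed, among them DNA replication (37 tested), mitosis (35), Polycomb and trithorax (26), chromatin remodelers (27), Mediator (28), Toll and Imd (24) and the unfolded protein response (23).

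The main effect averages 2 comparisons that share no library. Row RNAi against control called 20 genes (0.271%; 7 higher, 13 lower), with 502 at an unadjusted p under 0.05. Double RNAi against BEAF-32 RNAi called 8 genes (0.108%; 1 higher, 7 lower), with 497 at an unadjusted p under 0.05. Both called CG15209, Nplp2, CG3961, Act5C, Prx2540-1 and CG1092. Of the 49 genes of the main effect, 31 were called in neither comparison alone, 11 in row RNAi against control alone and 1 (CG11077) in double RNAi against BEAF-32 RNAi alone. All 49 had the same sign in both, which choosing them by their average largely fixes, and 24 had the larger change in row RNAi against control. Genes picked in 1 comparison and read in the other are free of that choice. Of 151 genes with an unadjusted p under 0.01 in row RNAi against control, 118 (78.1%) had the same sign in double RNAi against BEAF-32 RNAi, and 46 had it with an unadjusted p under 0.05. Of 140 picked in double RNAi against BEAF-32 RNAi, 108 (77.1%) had the same sign in row RNAi against control, and 36 also had an unadjusted p under 0.05. Over all tested genes 53.9% had the same sign. Across the 7377 genes, which are not independent, the log2 changes correlated at r = 0.155 (Spearman 0.128), a description of genes that share library depth.

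**Figure D5:**
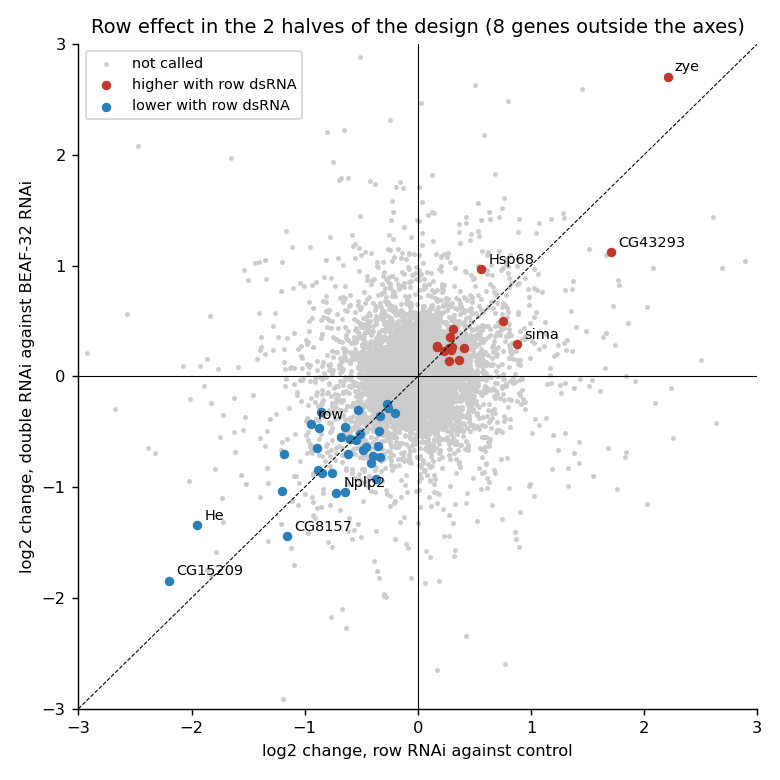
Log2 change in row RNAi against control (horizontal) and in double RNAi against BEAF-32 RNAi (vertical) for the tested genes (8 with a change past 3 on either axis lie outside the frame), with genes called in the main effect in red (rose) and blue (fell) and the dashed line marking equal changes. Called genes lie in the quadrants of equal sign. Changes are larger in row RNAi against control for He, row and sima. They are larger in double RNAi against BEAF-32 RNAi for CG8157 and Hsp68. The interaction did not pass the adjustment for any of these genes.

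Of the genes called in row RNAi against control 18 of 20 had the same sign in double RNAi against BEAF-32 RNAi, 12 of them with an unadjusted p under 0.05. The exceptions were CG10274 (log2 change -1.23 in row RNAi against control and 0.35 in double RNAi against BEAF-32 RNAi) and CG4612 (0.57 and -0.02), both named after their values were seen. All 8 genes called in double RNAi against BEAF-32 RNAi had the same sign in row RNAi against control, with 7 at an unadjusted p under 0.05. The exception to that p was CG5254, at -1.82 in double RNAi against BEAF-32 RNAi and -0.35 in row RNAi against control (unadjusted p = 0.414 in edgeR).

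Whether the row effect depended on BEAF-32 dsRNA was tested with an interaction term. The fit called 0 genes in edgeR, with 326 (4.42%) at an unadjusted p under 0.05 and a smallest adjusted p of 0.512, and DESeq2 and limma-voom also called 0. Among the 49 called genes 2 (4.08%) had an unadjusted interaction p under 0.05 in edgeR, a share near that over all genes, and neither passed the adjustment. For sima the interaction was -0.58 (95% interval -1.05 to -0.12), with log2 changes of 0.29 in double RNAi against BEAF-32 RNAi and 0.88 in row RNAi against control. For CG14523 it was 0.54 (95% interval 0.08 to 1.01), with log2 changes of -0.32 in double RNAi against BEAF-32 RNAi and -0.86 in row RNAi against control. For Nplp2 the interaction was -0.32 (95% interval -0.68 to 0.03), for DnaJ-1 -0.25 (-0.65 to 0.14) and for CG15209 0.37 (-0.51 to 1.24). A missed threshold does not show that the 2 effects were equal.

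The called genes lay on every major chromosome arm. Arm 3L held 14 of 1411 tested genes (6 rose, 8 fell), 3R held 13 of 1799 (5 rose, 8 fell), 2R held 10 of 1502 (2 rose, 8 fell), 2L held 6 of 1304 (1 rose, 5 fell), X held 5 of 1258 (2 rose, 3 fell) and chromosome 4 held 1 of 60 (CG11077, which fell). The share called was 0.992% on 3L and 0.397% on X, beside 0.664% over all arms. Among pairs of neighbouring tested genes 51.7% (3779 of 7307) changed in the same direction, and among pairs that held a called gene 49 of 97 did (50.5%). CG11825 and Prx2540-1, adjacent on 2R, were the 1 pair in which both were called, and both fell. Prx2540-2, on the other side of CG11825, had a log2 change of -0.78 (adjusted p = 0.263). All 49 called genes were protein coding, against 7031 of 7327 tested genes with a matched annotation. Of the 49, 27 overlap another annotated gene, 10 of them on the same strand, which leaves their counts uncertain. Overlaps were not counted over all tested genes, so whether 27 of 49 is an unusual share was not tested. The overlapping genes include CG15209, He, Glt, Pgm, row, sima, Myc and ena, while Act5C, DnaJ-1, Nplp2, CG3961, CG1092 and Prx2540-1 overlap none.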

How the data were processed

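The deposited table, made by the authors, holds raw counts, not normalized, of each gene in 12 libraries of 3' RNA-seq in 4 groups of 3. Libraries were made with oligo-dT primers that carry an 8-base molecular identifier, per the labels' protocols, and reads were aligned with STAR to dm3, per the submitters' processing notes. Not given in the sources used here are the STAR version, annotation, strand setting and identifier collapsing. Names come from the count table, and 16583 of its 16718 symbols matched a reference gene table. Overlaps and neighbours come from annotation BDGP6.54, another build, so no coordinates are printed.

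The analysis ran in edgeR 4.0.16 under R 4.3.3: filterByExpr by group (minimum count 10), TMM (factors 0.962 to 1.05), a robust quasi-likelihood fit of row dsRNA plus BEAF-32 dsRNA (9 residual degrees of freedom) and Benjamini-Hochberg adjustment over 7377 genes. The SE was derived from the test, as the size of the log2 change divided by the root of F. Of the called genes with a mean CPM of at least 10, up to 15 per direction with the largest log2 change were named, and up to 4 members per list by p. Other names, among them the remaining called genes, were added after their values were seen. Members and lists were chosen with earlier results of these data known. Alternatives used DESeq2 1.42.0, limma 3.58.1, other scalings and filters, a replicate block and leaving out each library. Counting error grows at low counts, so low genes have wider errors.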

Additional observations from a re-analysis of the deposited data

Results flagged for a closer look

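In 62 sets of 6 libraries examined (each named gene with and without row dsRNA), 4 had 1 library farther from its nearest neighbour than Dixon's 95% limit allows, and chance does this in about 1 set in 20. Prx2540-1 reached 58.9 CPM in double RNAi replicate 2, where the nearest library with row dsRNA had 46.0 CPM. CG6912 reached 32.8 CPM in double RNAi replicate 1, where the nearest library with row dsRNA had 20.0 CPM. He reached 106 CPM in BEAF-32 RNAi replicate 3, where the nearest library without row dsRNA had 55.0 CPM. Myc reached 319 CPM in BEAF-32 RNAi replicate 1, where the nearest library without row dsRNA had 273 CPM.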

How the results depend on the processing

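The count of 49 genes called for row dsRNA was 48 with DESeq2's size factors, 48 with library totals and 52 with a CPM filter. It was 67 in DESeq2 and 57 in limma-voom. The count was 41 without the BEAF-32 covariate and 43 with the row effect averaged over an interaction fit. It was 75 with no filter on low counts and 24 at a threshold of 0.01 (7 higher, 17 lower). Leaving out each library gave 30 to 56 calls, and log2 changes of the row transcript of -0.76 to -0.62. Without BEAF-32 RNAi replicate 3 and control replicate 1, a choice made after seeing the data, there were 51 calls, 34 of them shared, and the row transcript stood at -0.64 (adjusted p = 0.0632). Row RNAi against control gave 7 to 20 calls and double RNAi against BEAF-32 RNAi 3 to 11 when a library was left out. The lowest counts were those without row RNAi replicate 2 (7) and without BEAF-32 RNAi replicate 1 (3). Of the 49 genes 20 were called in all 12 fits that leave out a library and in all 9 alternatives of scaling, filter, tool or design. Values under the alternatives were counted for the called genes other than row and for BEAF-32. Of these values 874 kept their direction and side of the threshold, 203 lost the call and 0 reversed. BEAF-32 was not called in the main fit (adjusted p = 0.698), so it had no call to lose. The lost calls of row, described above, are not in these counts. The causes were not tested. No pairing by replicate number was seen: same-numbered libraries correlated at -0.117 to 0.0617, and 5 of 12 correlated best with their own number. The labels do not say whether libraries of the same number were handled together. A replicate block gave 49 calls (45 shared), 24 in row RNAi against control and 11 in double RNAi against BEAF-32 RNAi.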
